A study of Mus musculus with 5 samples.

Results

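The cells described here are 206 collagen-expressing cells, the fibroblast-type cells of a mouse lung single-cell RNA-seq time course, out of 44772 cell barcodes that met the quality limits in 5 libraries. They were picked by raw UMI counts (unique molecular identifiers, 1 for each captured RNA molecule). Col1a1, Col1a2 and Col3a1 together had to reach 5 UMIs, Dcn and Pdgfra together had to reach 1, and Ptprc, Epcam, Cdh5 and Cd68, which mark leukocytes, epithelium, endothelium and macrophages, had to be at 0. A barcode was considered if it held 800 to 60000 UMIs of 300 to 8000 genes, with mitochondrial genes giving less than 15% of the UMIs. The day 7 library held no barcode under 4624 UMIs, so there the lower limit was in effect 4624, while the other libraries reached down to 500 to 502. Because these 9 genes chose the cells, their values below are a description only. All mice carried Ms4a3-CreER;R26-tdT, a tamoxifen-inducible Cre driven by Ms4a3, a gene of granulocyte and monocyte progenitors, with a tdTomato reporter at the Rosa26 locus. They were adult, of mixed C57BL6/129 background and both sexes, all received tamoxifen, and were given PBS (sham) or bleomycin, a DNA-damaging drug used to provoke lung fibrosis, into the trachea. The sham lungs formed one group and the other lungs were taken 3, 7, 14 and 28 days after bleomycin, with 1 library each. The number of mice behind a library was not given in the sources used here, so days and libraries cannot be told apart, and no p-value is given between days. The labels call the sequenced material immune cells, and the collagen-expressing cells are the small part of it that held none of the leukocyte and macrophage transcripts of the rule.

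Sham held 20 such cells of 9238 kept barcodes, a share of 0.216% (exact 95% binomial interval 0.132 to 0.334%). Day 3 held 51 of 8004 (0.637%, 0.475 to 0.837%), day 7 held 70 of 9493 (0.737%, 0.575 to 0.931%), day 14 held 23 of 7757 (0.297%, 0.188 to 0.445%) and day 28 held 42 of 10280 (0.409%, 0.295 to 0.552%). The intervals of days 3 and 7 lay above those of sham and day 14. With 1 library each, this difference has no replicate check. With likely doublets (scored as described below) removed, the intervals were 0.146 to 0.368% in sham and 0.340 to 0.670% at day 3. They were 0.525 to 0.883% at day 7 and 0.149 to 0.397% at day 14. The day 3 interval then overlapped those of sham and day 14, and that of day 7 lay above both. With a minimum of 4624 UMIs in every library the shares were 0.188, 0.594, 0.737, 0.215 and 0.322% from sham to day 28, with 7, 14, 0, 11 and 18 cells fewer. Without the mesothelial and mural cells described below, the shares were 0.162% (0.0909 to 0.268%) in sham, 0.512% (0.368 to 0.694%) at day 3, 0.411% (0.292 to 0.561%) at day 7, 0.258% (0.158 to 0.398%) at day 14 and 0.311% (0.213 to 0.439%) at day 28. The intervals of days 3 and 7 then lay above that of sham and overlapped that of day 14. The cells together carried 175399, 628542, 858269, 228460 and 307003 UMIs in sham and at days 3, 7, 14 and 28, so a single UMI was a larger part of the total in sham and at day 14. The median cell held 7740.5, 9273, 9713, 4854 and 5415.5 UMIs in the same order, with the higher lower limit at day 7. Without the rule's 4 exclusions 387 barcodes would have qualified. Of the 181 left out, 122 had a Ptprc UMI, 123 a Cd68 UMI, 31 an Epcam UMI and 12 a Cdh5 UMI. By library, 21 of 41, 28 of 79, 91 of 161, 20 of 43 and 21 of 63 were left out from sham to day 28. The shares above were taken after this uneven loss. At the collagen threshold, 4 cells just inside had 5 or 6 UMIs and 8 barcodes just outside had 3 or 4. No barcode of these cells occurred in more than 1 library.

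Lung fibroblasts build and renew the extracellular matrix, the meshwork of fibrillar collagens, elastic fibres, glycoproteins and proteoglycans that gives alveoli and airways their shape and recoil. After injury they secrete chemokines, lay down collagen and elastin, release enzymes that crosslink or cut matrix, and in part take on actin bundles as myofibroblasts, the contractile cells of fibrotic foci. Alveolar fibroblasts lie in the septa, adventitial fibroblasts around vessels and airways, and mesothelial cells, a separate lineage, line the lung surface and also make collagen and decorin.

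The collagens of the rule were present in all libraries. Col1a1, which encodes the alpha 1 chain of type I collagen, stood at 3700.1 CPM in sham and 4143, 2387, 5331 and 3365 CPM at days 3, 7, 14 and 28, where CPM is the UMI count of a gene scaled to a total of 1e6 UMIs over the cells of a library. Col1a2, its partner chain, stood at 6283, 3864, 3083, 6955 and 4899 CPM in the same order and Col3a1, the type III chain, at 6671, 5708, 4375, 8001 and 4919 CPM. Dcn, a small proteoglycan that coats collagen fibrils, stood at 13033, 9855, 5423, 8609.8 and 12098 CPM, and Pdgfra, the receptor that marks many lung fibroblasts, at 165, 161, 95.5, 355 and 186 CPM. These 5 genes were lowest at day 7 in each case, and Col1a1, Col1a2, Col3a1 and Pdgfra were highest at day 14. Of the 70 day 7 cells, 23 lay in cluster 6, described below, whose cells held mesothelial UMIs. In that cluster the 5 genes stood at 296, 542, 1441, 3360 and 0 CPM in the order above. The day 7 values are therefore not those of fibroblasts alone.

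The fibroblast label held for most of these cells but not for all. Mesothelial genes were present in part of them: 55 cells held at least 2 UMIs of Msln, Upk3b, Upk1b, Wt1 and Lrrn4, genes of the lung's surface lining, namely 5, 9, 30, 2 and 9 cells from sham to day 28. At day 7 they made up 42.9% of the cells. Msln, which encodes mesothelin, stood at 564 CPM in sham and 44.5, 2842, 289 and 186 CPM at days 3, 7, 14 and 28. The median cell held 0 CPM of Msln in every library. In sham 4 of 20 cells held any, at most 5167 CPM. The 12 mesothelial genes looked at summed to 6089, 1311, 10231, 3112 and 4114 CPM from sham to day 28, none of them at 0 in any library, and Igfbp5 was the most abundant. For this reason the cells are called here collagen-expressing cells rather than fibroblasts. Some counts, not all, are repeated without the 59 cells holding at least 2 UMIs of mesothelial or mural genes (smooth muscle and pericytes), which leaves 147. Of 12 pericyte genes, which mark cells wrapped around capillaries, Rgs5, Higd1b, Cox4i2 and Kcnk3 were at 0 in every library, and Pdgfrb, the most abundant, had 13, 33, 33, 29 and 17 UMIs from sham to day 28. Of 10 smooth muscle genes Actg2, Actc1 and Pcp4l1 were at 0 throughout and Myh11 had 0, 3, 1, 1 and 1 UMIs. By a doublet score (Scrublet), 36 of the 206 cells ranked among the likely doublets, 0 in sham and 15, 10, 5 and 6 at days 3, 7, 14 and 28.

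Sorted by their whole transcriptome without the rule's genes, the cells fell into 8 clusters, named here by their leading genes only. Cluster 1 (35 cells) was led by Cped1, Akap12, Inmt and Abcc9, with Eln, the elastin gene, at 1919 CPM. Cluster 2 (33 cells) was led by Tmem100, Dpep1, Pi16, Scara5 and Clec3b. Pi16, a gene of adventitial fibroblasts, stood at 4420.2 CPM in cluster 2 and at 2436 CPM in cluster 1. Cluster 4 (27 cells) was led by the chemokine genes Ccl7 and Ccl2, the secreted pattern-recognition gene Ptx3 and the interferon gene Isg15, with Ccl7 at 1724 CPM. In cluster 5 (27 cells) Rbp4, Gadd45g and Igfbp4 led, and in cluster 7 (15 cells) F3, which encodes tissue factor, and Tslp, an epithelial-type cytokine gene. F3 was seen in 7 of these 15 cells with 52.2% of its UMIs in 1 cell, and Tslp in 5 with 84% in 1 cell. With 1 library per day, a cluster mostly of 1 day, such as clusters 4 and 6, may be that library rather than a kind of cell.

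Clusters 3 and 6 held all 55 cells with mesothelial UMIs. Cluster 6 (26 cells, 23 of them from day 7) was led by Msln, Dmkn, Slpi, Slurp1 and Krt8, all 26 of its cells held mesothelial UMIs, Msln stood at 5815 CPM, and Pdgfra and Pi16 were at 0. Cluster 3 (32 cells from all libraries) was led by Enpp2, Trf, Cd74, Fabp5 and Wnt4, held Wt1 at 451 CPM, and 29 of its cells had mesothelial UMIs. Of the Cd74 UMIs in cluster 3, 70.8% lay in 1 cell, and of the Dmkn UMIs in cluster 6, 69.8%. Likely doublets numbered 0, 1, 16, 9, 1, 1, 3 and 5 in clusters 1 to 8. Gsn, an actin-severing gene that marks lung fibroblasts, stood at 289 CPM in cluster 3 and 88.1 CPM in cluster 6, against 22446 CPM in cluster 1 and 23339.6 CPM in cluster 2. Cluster 8 (11 cells, from days 7, 14 and 28) was led by Spp1, Serpine2, Grem1, Thbs1 and Ltbp2, with Col1a1 at 1894 CPM. Most of its Spp1 UMIs lay in 2 day 28 cells, at 63765 and 92818 CPM, while the other cells stood between 75.3 and 4869 CPM, and Grem1 was seen in 4 of the 11 cells and Serpine2, Thbs1 and Ltbp2 in 6 each. At a higher resolution of 1.5 all 8 clusters kept the same cells. At a lower resolution of 0.5 there were 5 clusters. The 11 cells of cluster 8 then lay in a cluster of 45 with 34 of the 35 cells of cluster 1, clusters 4 and 5 lay together in a cluster of 55, and clusters 2 and 7 in a cluster of 49. With likely doublets removed, the 6 remaining cells of cluster 8 and 9 of the 12 of cluster 7 lay in a cluster of 51 with the 35 cells of cluster 1, and 16 of the 26 of cluster 5 lay in a cluster of 35 with the 18 of cluster 4.

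**Figure D1:**
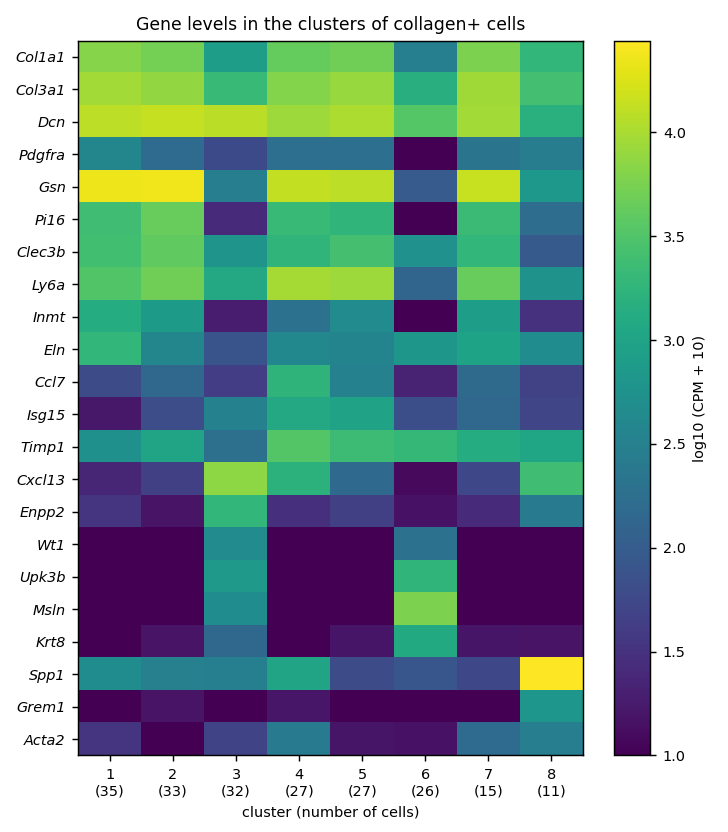
Levels of 22 genes in the 8 clusters of collagen-expressing cells, as log10 of CPM + 10 (colour), with clusters on the x axis (number of cells in brackets) and genes on the y axis. Msln, Upk3b and Wt1 are at 0 outside clusters 3 and 6, Gsn is lowest there, and Spp1 is brightest in cluster 8.

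Each day was compared with sham gene by gene. A gene entered the comparison, and is called tested here, where it reached 100 CPM and 15 UMIs in either library. It was counted as higher or lower where log2 of (CPM + 10) differed by 2-fold or more and the exact 95% Poisson counting intervals of the 2 libraries did not overlap. Such intervals cover counting error only, not differences between animals, and all 4 days share the sham library and its 20 cells. A gene that reached the limits at the day alone could not be called lower, and one that reached them in sham alone could not be called higher. The list counts below are in part set by this filter. At day 3, 175 of 1843 genes were higher (9.50%) and 213 lower (11.6%). At day 7, 159 of 1863 were higher (8.53%) and 153 lower (8.21%), at day 14, 217 of 2080 were higher (10.4%) and 132 lower (6.35%), and at day 28, 82 of 1829 were higher (4.48%) and 113 lower (6.18%). Scaling the libraries by TMM instead of by their totals moved all genes by 0.21 on the log2 scale at day 3 and by -0.20 at day 14. The day 3 calls were then 279 higher and 152 lower, and those of day 14 were 125 higher and 200 lower. Directions at these 2 days are therefore relative to the scaling.

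The interferon-induced genes, antiviral genes switched on by type I interferon, were high at day 3. Of 15 tested, 13 were higher (percent of all genes higher, 9.50%) and 0 lower, with a median log2 ratio of 2.71 against 0.04 over all genes. Against the same sham library only 3 members were tested at days 14 and 28. Most of the 15 therefore entered through their day 3 level alone, and such members could not be called lower. The count of 0 lower, the share higher and the median are thus in part set by the filter. Irf7, a transcription factor that amplifies the response, had 1, 318, 56, 2 and 2 UMIs from sham to day 28, or 5.70, 506, 65.2, 8.75 and 6.51 CPM. The day 3 UMIs came from 41 of the 51 cells, at most 42 in 1 cell, and the ratio to the single sham UMI was 88.7-fold (95% counting interval 15.8 to 3516). Isg15, a ubiquitin-like modifier, stood at 85.5 CPM in sham and 1260.1, 53.6, 78.8 and 13.0 CPM at days 3, 7, 14 and 28, so that the day 3 library alone lay above the sham interval. Ifit1 and Ifit3, which bind viral RNA or its partners, stood at 74.1, 439, 96.7, 70.0 and 58.6 CPM and at 51.3, 455, 60.6, 26.3 and 6.51 CPM. Ifitm3, a membrane protein that hinders virus entry, was high in all libraries (1961, 7775, 3283, 1396 and 2179 CPM) and 3.96-fold higher at day 3 than in sham. Zbp1, a nucleic acid sensor, was at 5.70 CPM in sham and 319.8 CPM at day 3, and Ifi27l2a at 553 and 5115 CPM. At day 7, 3 of 5 tested members were higher (Gbp2, Ifi27l2a and Oasl2; all genes 8.53%), and at days 14 and 28, 0 of 3 were (all genes 10.4% and 4.48%). Without mesothelial and mural cells 14 of 15 were higher at day 3 and 2 of 3, Bst2 and Ifi27l2a, at day 7 (all genes 10.6% and 6.43%), where Gbp2 and Oasl2 were not tested, and with TMM 14 of 15 at day 3 (all genes 14.2%).

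Irf7 and Isg15 were highest at day 3 outside the collagen-expressing cells too. In all other kept barcodes Irf7 stood at 10.2, 1103, 51.7, 27.4 and 8.70 CPM and Isg15 at 21.1, 1174, 42.2, 48.2 and 14.2 CPM from sham to day 28. How much of the UMIs in the collagen-expressing cells came from free RNA was not tested.

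Since several interferon-induced genes were high together at day 3, the stretch before their start sites is shown for 4 of them. It is given as the 200 bases upstream of the start from RefSeq (GRCm38.p6), written 5′ to 3′ on the gene's strand. Capitals mark GAAANNGAAA on either strand (TTTCNNTTTC when it lies on the other strand), a short form of the element bound by interferon-regulated factors, with overlapping matches merged. Isg15 (chr4:156200819-156201018, minus strand) held 3 overlapping matches, Ifit1 (chr19:34640689-34640888, plus strand) and Ifit3 (chr19:34583329-34583528, plus strand) 2 each, and Irf7 (chr7:141266425-141266624, minus strand) 0.
Isg15: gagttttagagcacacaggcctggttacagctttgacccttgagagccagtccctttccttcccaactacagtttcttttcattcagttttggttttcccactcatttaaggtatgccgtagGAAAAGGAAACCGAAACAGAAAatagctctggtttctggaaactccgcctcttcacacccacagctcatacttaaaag
Ifit1: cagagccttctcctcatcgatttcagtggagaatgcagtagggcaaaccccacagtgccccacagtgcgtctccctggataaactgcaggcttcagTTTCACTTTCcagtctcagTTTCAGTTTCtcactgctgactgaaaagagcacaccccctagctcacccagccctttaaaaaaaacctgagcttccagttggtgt
Ifit3: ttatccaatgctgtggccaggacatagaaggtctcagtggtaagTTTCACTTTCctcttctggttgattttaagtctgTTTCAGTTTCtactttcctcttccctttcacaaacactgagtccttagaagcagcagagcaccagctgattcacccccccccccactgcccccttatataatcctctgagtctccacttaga
Irf7: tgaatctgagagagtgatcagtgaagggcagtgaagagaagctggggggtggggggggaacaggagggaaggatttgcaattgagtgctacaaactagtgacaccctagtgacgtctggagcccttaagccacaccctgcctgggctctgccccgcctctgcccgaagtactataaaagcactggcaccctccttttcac
In the full window from 250 bases before to 50 after the start, 9 of the 12 interferon-induced genes with an entry held the motif, 7 of the 10 among those higher at day 3, against 1079 of all 27025 genes with an entry (3.99%). A match in this window is a description of letters and says nothing of binding in these cells.

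Of the inflammatory genes of fibroblasts, that is, chemokines, acute-phase and complement genes, 11 of 22 tested were higher at day 3 and 0 lower (all genes 9.50% higher). The median log2 ratio was 0.93 against 0.04 over all genes. Some of the 11, among them Ccl2, Cxcl13 and Saa3, lay under the entry limits in sham and were tested through their day 3 level alone. Such members could not be called lower. The count of 0 lower, the share higher and the median are thus in part set by the filter here too. No complement gene was among those higher. Ccl2, which draws monocytes through CCR2, was at 22.8 (6.21 to 58.4) CPM in sham and 514 (459 to 573) CPM at day 3, and then at 122, 43.8 and 74.9 CPM. Ccl7, a related ligand, stood at 125 CPM in sham and 1341, 79.2, 61.3 and 35.8 CPM at days 3, 7, 14 and 28. Its day 3 UMIs were spread over 33 cells, while 17 of the 22 sham UMIs lay in 1 cell. Ccl11, the eosinophil chemokine eotaxin, was 3.23-fold higher at day 3 (376 to 1214 CPM) and stood at 185, 223 and 352 CPM at days 7, 14 and 28, where it was not called. Il33, an alarmin of stromal cells, was at 308, 919.6, 372, 127 and 264 CPM from sham to day 28, higher at day 3 and lower at day 14. Saa3, an acute-phase gene, had 0 UMIs in sham and 454 at day 3 in 8 cells, at least 42.2-fold higher against a floor of 3 UMIs. At day 28, 65 of its 66 UMIs lay in 1 cell.

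Some of these calls rested on very few cells. Cxcl13, a B cell chemokine, had 0 UMIs in sham and 2218 at day 3, 1562 of them in 1 cell, and 716 at day 7, 449 of them in 1 cell. Cxcl9 had 140 of its 151 day 3 UMIs in 1 cell, and was not tested without mesothelial and mural cells. At days 7, 14 and 28 the inflammatory list went both ways, with 4 higher and 4 lower of 20, 4 and 3 of 18, and 4 and 4 of 19 (all genes higher 8.53%, 10.4% and 4.48%). C4b, a complement gene, was 4.10-, 3.83- and 3.23-fold higher than in sham at days 7, 14 and 28, where it stood at 1755, 1637 and 1381 CPM. The day 7 call of C4b did not remain without mesothelial cells (log2 ratio 0.92 against 2.01). C3, the central complement gene, stood at 3848, 3351, 7226, 3134 and 3977 CPM and was called at no day. Cxcl2 and Il6 were lower at day 28, at 6.51 and 32.6 CPM against 143 and 182 CPM in sham.

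**Figure D2:**
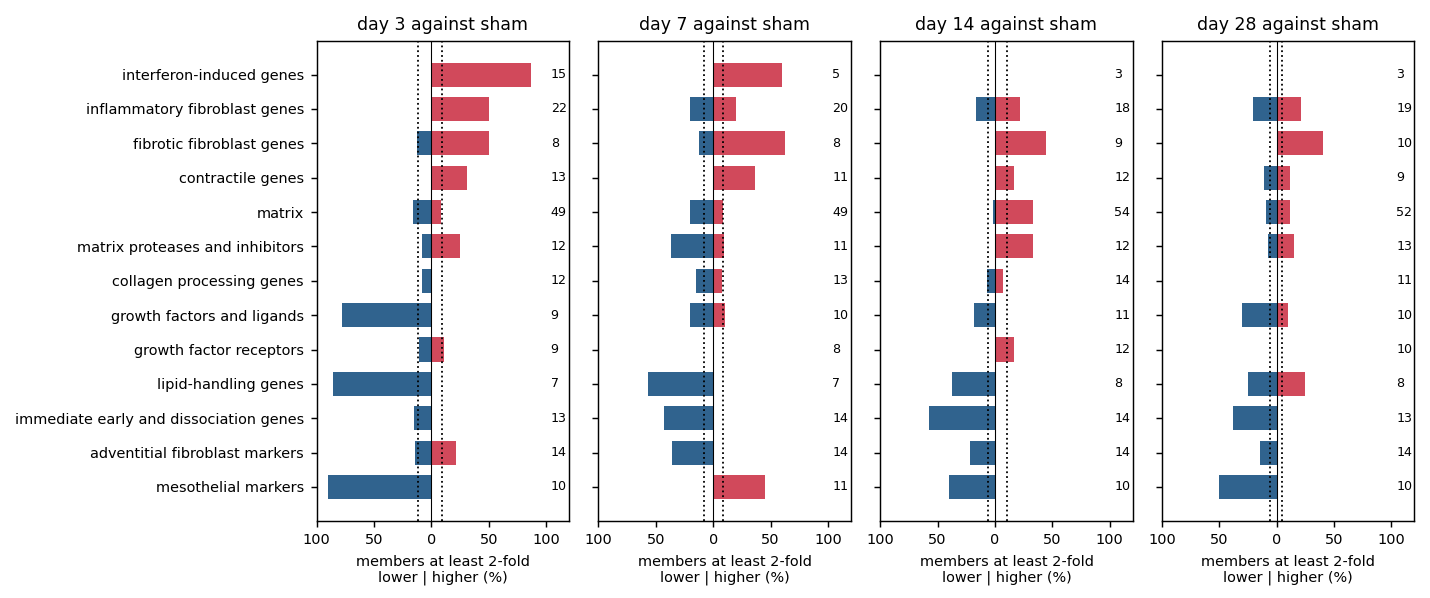
Share of tested members of 13 gene lists at least 2-fold higher (red, right) or lower (blue, left) than in sham, in percent (x axis), 1 panel per day. The number tested stands at the right of each row and the dotted lines give the shares over all genes; the interferon-induced genes at day 3 reach furthest to the right, and mesothelial markers and lipid-handling genes at day 3 furthest to the left.

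Matrix genes had their largest count of higher members at day 14. Of 86 listed collagens, elastic fibre genes, glycoproteins and proteoglycans (without the rule's own genes), 54 were tested at day 14, 18 were higher and 1 lower (all genes 10.4% and 6.35%), with a median log2 ratio of 0.44 against 0.12 over all genes. With TMM 11 of 52 were higher and 1 lower (all genes 6.65% and 10.6%). The counts were 4 higher and 8 lower of 49 at day 3 (all genes 9.50% and 11.6%), 4 and 10 of 49 at day 7 (8.53% and 8.21%) and 6 and 5 of 52 at day 28 (4.48% and 6.18%). With TMM the day 3 count was 7 higher and 2 lower of 50 (all genes 14.2% and 7.72%). Without mesothelial and mural cells the day 7 count was 6 higher and 4 lower of 48 (all genes 6.43% and 6.07%). The summed matrix level was 29099, 30572, 26665, 40707 and 30941 CPM from sham to day 28.

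Among collagens, Col5a2, a chain that limits fibril width, was at 359 (276 to 459.5) CPM in sham and 779 (669 to 902) CPM at day 14. The microfibrillar Col6a2 and Col6a3 were at 296 and 125 CPM in sham and at 661 and 438 CPM at day 14, 2.23- and 3.49-fold higher. With TMM the day 14 calls of Col5a2 and Col6a2 did not remain (log2 ratios 0.90 and 0.93 against 1.10 and 1.13). Col4a1, of basement membranes, was higher at day 7 and day 14, with 268, 480.5, 553, 762 and 375 CPM from sham to day 28. Col15a1, which links basement membranes to fibrils, was at 68.4 CPM in sham and 249 CPM at day 14, with 28 of 57 UMIs in 1 cell. Col14a1 stood at 804, 708, 522, 819 and 713 CPM and was called at no day.

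Of the elastic fibre genes, 3 of 14 were higher at day 14 and 0 lower (all genes 10.4% and 6.35%). Eln stood at 582 (474 to 706) CPM in sham and at 482 (429 to 539.5), 531 (484 to 582), 2219 (2030.2 to 2421) and 289.9 (233 to 357) CPM at days 3, 7, 14 and 28, with 95% counting intervals in brackets, so that the day 14 interval lay above the others. At day 14, 236 of 507 UMIs lay in 1 cell. Without the highest cell in each library the log2 ratio was 1.18 in place of 1.91, and the median cell held 224 CPM of Eln in sham and 270.3 CPM at day 14. Mfap4, a microfibril-associated gene, was 2.78-fold higher at day 14 (456 to 1269 CPM), with 52 of its 80 sham UMIs in 1 cell. Fbln5, which assembles elastic fibres, was instead lower at days 3, 7 and 28 (222, 92.3, 99.0, 188 and 42.3 CPM), and without mesothelial and mural cells it was called at day 7 alone.

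Of the glycoproteins, 8 of 19 were higher at day 14 and 1 lower (all genes 10.4% and 6.35%), and with TMM 5 of 19 and 1 (all genes 6.65% and 10.6%). Ctgf, a matricellular protein and a classic target of TGF-beta and YAP, was higher at every day, with 62.7 CPM in sham and 385, 225, 1313 and 309 CPM at days 3, 7, 14 and 28. Its 300 UMIs at day 14 lay in 11 of 23 cells, at most 97 in 1, while 58 of 95 at day 28 lay in 1 cell. Thbs1, which can release TGF-beta from its latent form, was also higher at every day, with 79.8, 636, 246, 389.6 and 1515 CPM, but only 3 cells held its day 28 UMIs. Fn1, fibronectin, was at 952, 1199.6, 692, 2149 and 2648 CPM, higher at days 14 and 28. Without mesothelial and mural cells neither call remained (log2 ratios 0.40 and 0.62 against 1.17 and 1.47). In the other barcodes Fn1 stood at 2186 and 1741 CPM at these days. Postn, periostin, was 28.5 (9.26 to 66.5) CPM in sham and 341 (269.9 to 426) CPM at day 14, 53 of 78 UMIs in 1 cell. Cyr61, a relative of Ctgf, differed in the other direction, with 1659, 908, 809.8, 385 and 456 CPM, and was lower at days 7, 14 and 28. Its day 7 call did not remain without mesothelial and mural cells or with TMM (log2 ratios -0.71 and -0.97 against -1.03). Sparc, a collagen-binding protein made by nearly all of these cells, ranged from 3270.3 to 5576 CPM and was called at no day.

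Of 11 proteoglycans tested, 0 were higher and 3 lower at day 3, 1 and 3 at day 7, 2 and 0 at day 14, and 0 and 0 at day 28 (all genes higher 9.50%, 8.53%, 10.4% and 4.48%, lower 11.6%, 8.21%, 6.35% and 6.18%). Bgn, a small proteoglycan of collagen fibrils, stood at 1346, 2059, 2592, 2736 and 1805 CPM and was called at day 14 (2.03-fold), but not with TMM (log2 ratio 0.82 against 1.02). Vcan, a large hyaluronan-binding proteoglycan of injured lung, was at 143 CPM in sham and 517 CPM at day 14, 54 of 118 UMIs in 1 cell. Ogn and Aspn, small leucine-rich proteoglycans like Bgn, were lower at days 3 and 7, Ogn at 379 and 386 CPM and Aspn at 78.0 and 29.1 CPM, against 821 and 194 CPM in sham. At days 14 and 28 Ogn stood at 1007 and 977 CPM, not below sham. With TMM the day 3 call of Ogn did not remain (log2 ratio -0.89 against -1.10). Has1, a hyaluronan synthase rather than a proteoglycan, was 3.66-fold higher at day 3 (279 to 1023 CPM) and lower at day 28 (48.9 CPM).

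**Figure D3:**
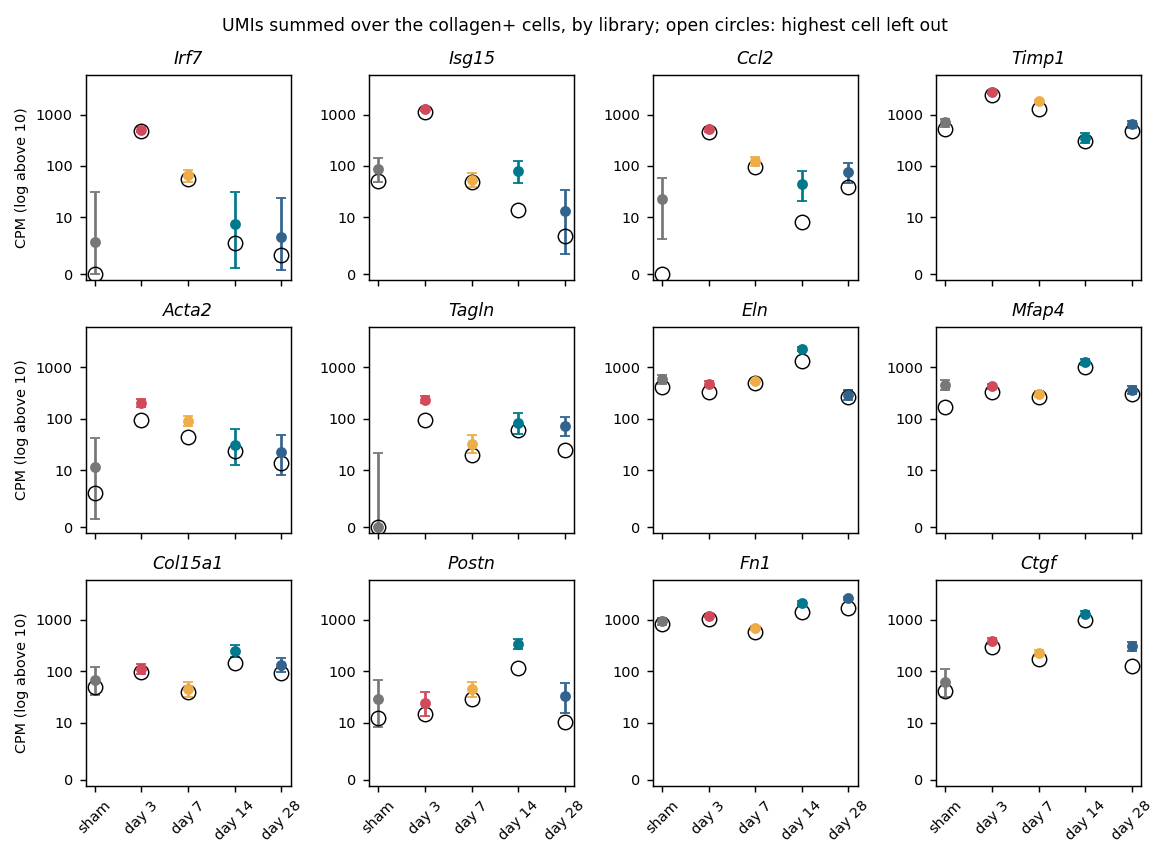
CPM of 12 genes summed over the collagen-expressing cells of each library (y axis, log above 10 CPM), with exact 95% Poisson intervals as bars and open circles for the value without the cell holding most UMIs. Irf7, Isg15 and Ccl2 are highest at day 3, Eln, Mfap4, Col15a1, Postn and Ctgf at day 14, and the open circles of Acta2, Tagln, Eln and Postn lie well under the filled ones in their highest library.

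Of the genes that modify collagen, 0 of 12, 1 of 13, 1 of 14 and 0 of 11 tested were higher at days 3, 7, 14 and 28 and 1, 2, 1 and 0 lower, near the shares of all genes (all genes higher 9.50%, 8.53%, 10.4% and 4.48%, lower 11.6%, 8.21%, 6.35% and 6.18%). Lox, which crosslinks collagen and elastin, was 2.47- and 3.38-fold higher at days 7 and 14, from 57.0 to 141 and 193 CPM. Pcolce2, an enhancer of procollagen processing, was lower at days 3 and 7, at 492 and 227 CPM against 1163 CPM. Serpinh1, the collagen chaperone HSP47, stood at 1625, 1321, 1052, 1081 and 1274 CPM and was called at no day.

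Of matrix proteases and their inhibitors, 3 of 12 were higher at day 3, 1 of 11 at day 7, 4 of 12 at day 14 and 2 of 13 at day 28, and 1, 4, 0 and 1 were lower (all genes higher 9.50%, 8.53%, 10.4% and 4.48%, lower 11.6%, 8.21%, 6.35% and 6.18%). Timp1, an inhibitor of metalloproteinases, was at 701 (583 to 837) CPM in sham and at 2692 (2565 to 2823), 1839.7 (1750.1 to 1933), 346 (274 to 431) and 645 (558 to 741) CPM at days 3, 7, 14 and 28. The median cell held 241 CPM in sham and 1647 CPM at day 3, so the day 3 level was shared by most cells. Of the day 7 UMIs 556 of 1579 lay in 1 cell, and without that cell and its sham counterpart the log2 ratio was 0.84 in place of 1.38, and without mesothelial and mural cells it was 0.96. Timp3, a matrix-bound inhibitor, was lower at days 3 and 7, with 3090.1, 1516, 912, 3440.4 and 1866 CPM, at day 3 not with TMM (log2 ratio -0.82 against -1.02). Mmp2 and Mmp14, a gelatinase and the membrane protease that activates it, were 3.70- and 4.37-fold higher at day 14, at 1077 and 324 CPM against 291 and 74.1 CPM. Serpine2, a protease inhibitor that led cluster 8, had 194 of 212 day 14 UMIs in 1 cell, and its day 14 call did not remain without mesothelial and mural cells.

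Contractile genes, the actin, myosin and actin-binding genes of myofibroblasts, were higher in 4 of 13 at day 3, 4 of 11 at day 7, 2 of 12 at day 14 and 1 of 9 at day 28, and lower in 0, 0, 0 and 1 (all genes higher 9.50%, 8.53%, 10.4% and 4.48%). With TMM the day 14 count was 0 of 10 (all genes 6.65%), and without mesothelial and mural cells the counts were 6 of 12, 7 of 12, 4 of 12 and 2 of 8 (all genes 10.6%, 6.43%, 10.2% and 4.80%). Acta2, smooth muscle actin, had 2, 128, 78, 7 and 7 UMIs from sham to day 28. At day 3 74 of its 128 UMIs came from 1 of the 10 cells in which any was seen. Tagln, transgelin, had 0, 147, 28, 19 and 22 UMIs, 90 of the day 3 ones in 1 cell. Cnn1 was at 0 at days 7, 14 and 28. Pdlim7, an actin-bundle adaptor, was spread more widely, with 39.9 CPM in sham, 146 CPM at day 3 over 32 cells and 114 CPM at day 7 over 39 cells. Tpm1, a tropomyosin, was highest at day 7, at 465 CPM against 137 CPM in sham.

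Genes reported for fibrotic fibroblasts overlap these lists. Of those tested, 4 of 8 were higher at day 3, 5 of 8 at day 7, 4 of 9 at day 14 and 4 of 10 at day 28 (all genes 9.50%, 8.53%, 10.4% and 4.48%), and Ctgf and Spp1 were among them at every day. Spp1 was not tested at days 3 and 7 without mesothelial and mural cells, and with these cells left out the counts were 4 of 7, 4 of 7, 5 of 9 and 3 of 11 (all genes 10.6%, 6.43%, 10.2% and 4.80%). Cthrc1, the gene most used to name such cells, had 3, 10, 5, 2 and 12 UMIs from sham to day 28 and was not tested at any day. Grem1, an antagonist of bone morphogenetic proteins, had 0 UMIs in sham and 102 at day 28 in 3 cells, at least 19.4-fold higher.

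Spp1, osteopontin, a secreted protein that macrophages make in injured lung, stood at 45.6 CPM in sham and 781, 127, 1037 and 16697 CPM at days 3, 7, 14 and 28. At day 28, 3465 of 5126 UMIs lay in 1 cell, and at day 3, 461 of 491. The median cell held 0 CPM in sham and at day 3, and 78.4, 698 and 673 CPM at days 7, 14 and 28. The other barcodes, mostly leukocytes, held 858, 1724, 3059, 12324 and 12035 CPM from sham to day 28, and the summed endothelial cells of the same libraries held 1970.2 CPM at day 14 and 2276 CPM at day 28. At day 28, 2 cells, both in cluster 8, lay above 10000 CPM. The part of free RNA in the Spp1 UMIs of the other cells was not tested.

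**Figure D4:**
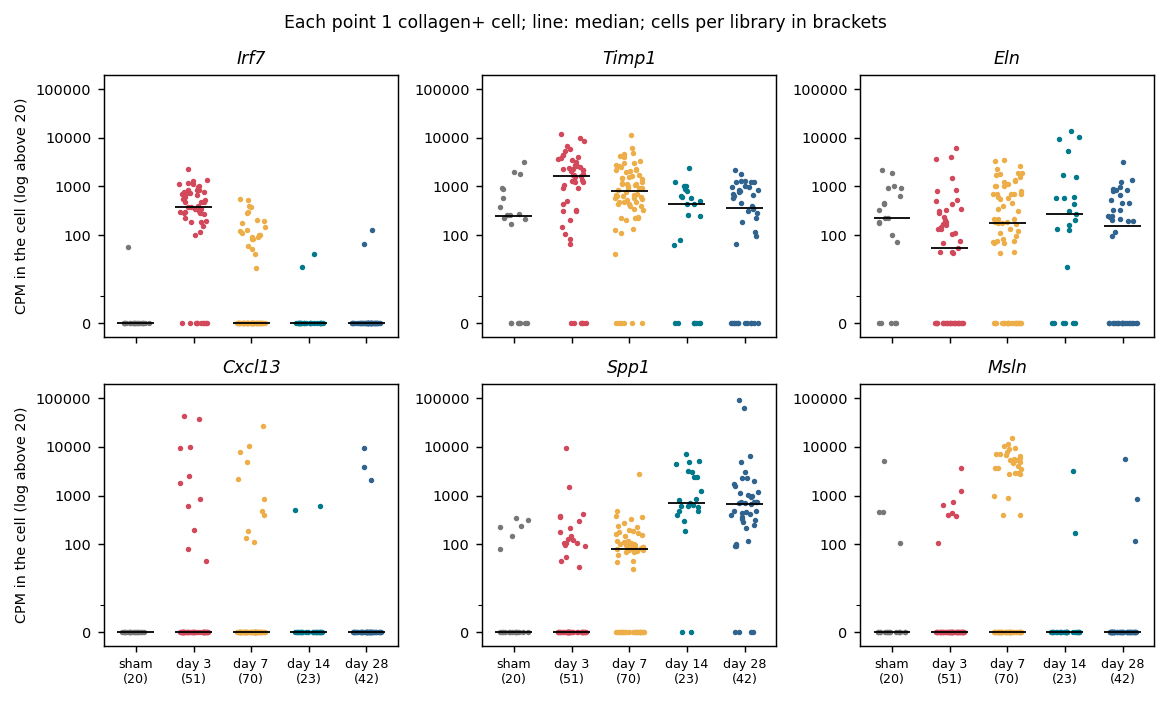
CPM of 6 genes in each of the 206 cells (points; y axis, log above 20 CPM) by library, with the median as a line and the number of cells in brackets. Irf7 and Timp1 are raised in most day 3 cells, Cxcl13 in a few cells, Msln in a separate group of day 7 cells, and Spp1 above 10000 CPM in 2 cells of day 28.

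Of growth factors and other ligands, 0 were higher and 7 lower of 9 tested at day 3 (all genes 9.50% and 11.6%), and the 7 were Bmp4, Figf, Gas6, Ogn, Rspo1, Sfrp2 and Wnt5a. With mesothelial and mural cells left out, 5 of 7 were lower (all genes 8.53%), while Rspo1 and Sfrp2 were not tested and Rspo1 had a log2 ratio of the opposite sign (1.14 against -1.25). Gas6, the ligand of the TAM receptors that clear dying cells, stood at 1551 CPM in sham and 442, 1247, 1335 and 453 CPM at days 3, 7, 14 and 28, lower at days 3 and 28. Bmp4 and Wnt5a, morphogens of the lung mesenchyme, were at 33.4 and 28.6 CPM at day 3 against 125 and 114 CPM in sham. Figf, the lymphatic growth factor VEGF-D, was lower at every day, with 502, 202, 169, 101 and 71.7 CPM, and 45 of its 88 sham UMIs lay in 1 cell. Its day 7 call did not remain without mesothelial and mural cells (log2 ratio -0.96 against -1.52). All 21 sham UMIs of Sfrp2 lay in 1 cell, so its calls rest on that cell. Tgfb2 was higher at day 7 (34.2 to 189.9 CPM) and not called there without mesothelial and mural cells. Counts at days 7, 14 and 28 were 1 higher and 2 lower of 10, 0 and 2 of 11, and 1 and 3 of 10 (all genes 8.53% and 8.21%, 10.4% and 6.35%, and 4.48% and 6.18%), and without mesothelial and mural cells 3 higher and 1 lower of 12 at day 14 (all genes 10.2% and 5.59%). Among receptors, Il1r1, for interleukin 1, was higher at days 3 and 14 (79.8, 196, 79.2, 223 and 147 CPM) and Tgfbr2, for TGF-beta, at day 14 (194 to 529.6 CPM). The day 3 call of Il1r1 did not remain without mesothelial and mural cells (log2 ratio 0.90 against 1.20).

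Lipid-handling genes, which mark lipid-laden septal fibroblasts, were lower in 6 of 7 tested at day 3, 4 of 7 at day 7, 3 of 8 at day 14 and 2 of 8 at day 28 (all genes lower 11.6%, 8.21%, 6.35% and 6.18%), and with TMM in 4 of 7 at day 3 (all genes 7.72%). Inmt, a methyltransferase of lung fibroblasts, stood at 1277 CPM in sham and 197, 178, 884 and 485 CPM at days 3, 7, 14 and 28. Adh1, an alcohol dehydrogenase that also acts on retinol, was at 393, 179.8, 137, 78.8 and 202 CPM and lower at days 3, 7 and 14. Its day 3 call did not remain with TMM (log2 ratio -0.89 against -1.09), nor its day 7 call without mesothelial and mural cells (-0.80 against -1.45). Gpx3, a secreted peroxidase, was lower at days 3, 14 and 28, but 79 of its 151 sham UMIs lay in 1 cell. Apoe, the lipid carrier, was lower at days 3 and 7, at 1063 and 931 CPM against 2320.4 CPM in sham, at day 3 not with TMM (log2 ratio -0.91 against -1.12). Lpl and Fabp4 were higher at day 28, at 495 and 147 CPM, and stood at 2682 and 546 CPM in the other barcodes, where macrophages carry both.

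Immediate early genes, which also respond to tissue digestion, were lower in 2 of 13 tested at day 3, near the 11.6% of all genes, and in 6 of 14, 8 of 14 and 5 of 13 at days 7, 14 and 28 (all genes 8.21%, 6.35% and 6.18%), and higher in 0. Jund stood at 3449, 1710.3, 1590.4, 543 and 1267 CPM from sham to day 28, and in the other barcodes at 913, 1004, 721, 364 and 427 CPM. It was lower at every day, but at days 3 and 7 not without mesothelial and mural cells (log2 ratios -0.95 and -0.93 against -1.01 and -1.11), nor at day 3 with TMM (-0.80). Fos, at 4322, 2994, 2354, 1186 and 2739 CPM, was called at day 14 alone. Without mesothelial and mural cells 1 of 13 was lower at day 3 and 2 of 13 at day 7 (all genes 8.53% and 6.07%), and with TMM 1 of 13 at day 3 (all genes 7.72%). Handling was not compared between days, and its part was not tested.

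Markers of fibroblast kinds were also counted. Adventitial markers were higher in 3 of 14 at day 3 and in 0 of 14 at the later days, and lower in 2, 5, 3 and 2 of 14 (all genes higher 9.50%, 8.53%, 10.4% and 4.48%, lower 11.6%, 8.21%, 6.35% and 6.18%). Without mesothelial and mural cells 1 of 13 was lower at day 3 and 2 of 13, Cd34 and Scara5, at day 7 (all genes 8.53% and 6.07%). Ly6a, a stem and stromal surface antigen that interferon raises, stood at 3113 CPM in sham and 9468, 2053, 1869 and 1632 CPM at days 3, 7, 14 and 28. Pi16 was lower at day 7 (889 against 2155 CPM), and not so without mesothelial cells (log2 ratio -0.57). Gsn was lower at every day, with 28067, 13355, 4323, 8273 and 12247 CPM, and remained lower at day 7 without mesothelial and mural cells (9306 CPM against 37346 CPM in sham). With TMM its day 3 call did not remain (log2 ratio -0.86 against -1.07). Alveolar markers were higher in 0 of 4, 0 of 5, 4 of 7 (Limch1, Macf1, Mfap4 and Npnt) and 0 of 5 at days 3, 7, 14 and 28, and lower in 1, 2, 0 and 1 (all genes higher 9.50%, 8.53%, 10.4% and 4.48%, lower 11.6%, 8.21%, 6.35% and 6.18%). With TMM Npnt was not called at day 14. Against the same sham library only 4 alveolar markers were tested at day 3. Some of the 7 at day 14 thus entered through that day alone and could not be called lower, so the count is in part set by the filter. Mesothelial markers were lower in 9 of 10 at day 3, 4 of 10 at day 14 and 5 of 10 at day 28, and higher in 5 of 11 at day 7 (all genes lower 11.6%, 6.35% and 6.18% and higher 8.53% at these days). Cluster 6, where Msln was highest, gave 1, 0, 23, 1 and 1 cells from sham to day 28. The sham level behind all of these calls thus leans on few cells.

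Other genes named by the size of their ratio at day 3 were Ptx3, at 5.70 and 461 CPM, and Ch25h, a cholesterol hydroxylase induced by interferon, with 0 and 82 UMIs, at least 7.63-fold higher. Ifi27, an interferon-induced gene by name, was lower, at 371 CPM in sham and 50.9 CPM at day 3, in contrast to Ifi27l2a. Chil3 and Scgb1a1, genes of alveolar macrophages and club cells, were lower at day 3 too (502 to 93.9 and 422 to 71.6 CPM), and in the other barcodes they stood at 12878 and 1948 CPM and at 5098 and 817 CPM. At day 7, Il18r1, Gsta3 and Ccnd1 were among the largest increases, and all 3 lost their call without mesothelial cells (log2 ratios 0.00, 0.19 and 0.53). At day 28, Fkbp5, Tsc22d3 and Zbtb16 were among the 5 largest increases of genes with at most 25% of their UMIs in 1 cell. Fkbp5, a chaperone of the glucocorticoid receptor, had 0, 42, 73, 13 and 36 UMIs from sham to day 28, spread over 23 cells at day 28. Tsc22d3, known as GILZ, stood at 51.3, 66.8, 189.9, 166 and 388 CPM and was higher at days 7, 14 and 28. Zbtb16 had 1 UMI in sham and 31 at day 28, a ratio of 17.7-fold (95% counting interval 2.95 to 722). Cell cycle genes were near the limit of detection, with 2 of 3 tested higher at day 7 (Hmgb2 and Stmn1, all genes 8.53%). Cdkn1a, the p53 target p21, was higher at days 7 and 14 (154, 239, 436, 599.7 and 195 CPM).

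Genes of other cell types were summed as lists, since UMIs of the suspension can enter any droplet. The 15 macrophage genes summed to 1551, 1228, 663, 2622 and 18384 CPM from sham to day 28, of which Spp1 gave 16697 CPM at day 28, against 36067, 22577, 29248, 54412 and 55829.9 CPM in the other barcodes. C1qa, C1qb and Adgre1 were at 0 in sham and Adgre1 at day 28 too. Lyz2, a lysozyme gene of macrophages, was the most abundant in sham and at day 7, at 582 and 202 CPM. The 14 epithelial genes summed to 610.0, 132, 2118, 980.5 and 765 CPM. Scgb1a1, the secretoglobin of club cells, was the most abundant of them in every library, and at day 7 it gave 783 CPM of the sum, beside 545 UMIs of Krt8 and 440 of Krt18, keratins that cluster 6 also held. Foxj1 was at 0 in sham and at days 3 and 14. The 12 endothelial genes summed to 701, 331, 373, 245 and 537 CPM, with Tie1 at 0 in every library and Vwf at 0 in sham and at days 3 and 28. The 8 neutrophil genes summed to 137, 98.6, 134, 263 and 107 CPM, with G0s2, which lipid-laden fibroblasts also make, the most abundant except at day 3. The 12 lymphocyte genes summed to 17.1, 31.8, 28.0, 26.3 and 32.6 CPM, with Cd3e, Cd4 and Ms4a1 at 0 in every library. The 5 erythroid genes summed to 22.8, 6.36, 8.16, 136 and 35.8 CPM. The part of these sums in the ratios above was not tested.

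The reporter marks cells in which Cre had acted. RFP, the deposited feature for the tdTomato transcript, had 3, 11, 16, 15 and 9 UMIs in the collagen-expressing cells from sham to day 28, at most 3 in 1 cell, or 17.1 to 65.7 CPM. The other barcodes held 199.5, 598, 249.9, 937 and 373 CPM, above the collagen-expressing cells in every library.

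Against other structural cells of the same libraries the data allow a test, since each library holds both kinds. UMIs were summed per cell kind and library and compared with edgeR's quasi-likelihood test with the library as a block and Benjamini-Hochberg adjustment, at 0.05. Its p-values measure the spread between these 4 libraries, which are different days. The test with endothelial cells (Cdh5 present, at least 3 UMIs of Pecam1, Cldn5 and Egfl7) used sham and days 3, 14 and 28, with 20, 51, 23 and 42 collagen-expressing and 10, 70, 33 and 41 endothelial cells. Of 3385 genes outside the rules, 487 were higher (14.4%) and 475 lower (14.0%) in the collagen-expressing cells. Without TMM 385 were higher and 687 lower. The test with epithelial cells (Epcam present, at least 3 UMIs of Krt8, Krt18 and Cdh1) used sham and days 7, 14 and 28, with 15, 125, 79 and 53 epithelial cells. Of 6914 genes 1153 were higher (16.7%) and 772 lower (11.2%), and without TMM 1000 and 319.

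Matrix genes other than those of the rule were mostly higher. Against endothelial cells 44 of 52 tested were higher and 1 lower (all genes 14.4% and 14.0%), with a median log2 fold change of 3.89 against 0.03 over all genes. Against epithelial cells 57 of 62 were higher and 0 lower (all genes 16.7% and 11.2%), with a median of 5.79 against -0.01. Since the cells were chosen for collagen, genes made together with collagen were bound to be high, and these counts describe the chosen cells. Bgn was at 1346, 2059, 2736 and 1805 CPM in the collagen-expressing and 205, 175, 98.5 and 69.3 CPM in the endothelial cells (log2 fold change 4.19 ± 0.38, adjusted p = 3.7e-06, edgeR, higher in 4 of 4 libraries). Sparc, which endothelium also makes, differed less (log2 fold change 2.49 ± 0.38, adjusted p = 2.5e-04, edgeR). Eln was 2.23 ± 0.44, adjusted p = 0.002 against endothelial cells (log2 fold change, edgeR). Col4a2, a basement membrane chain, was the gene of the list that was lower than in endothelium (log2 fold change -1.09 ± 0.31, adjusted p = 0.019, edgeR), and against epithelial cells it was higher (1.20 ± 0.27, adjusted p = 0.0049, edgeR).

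Fibroblast-type secreted genes separated the cells further. C3 stood at 3848 and 3977 CPM in sham and at day 28 against 0 and 23.1 CPM in endothelial cells (log2 fold change 7.70 ± 0.45, adjusted p = 3.7e-07, edgeR). Ccl11 and Il33 had 0 UMIs in endothelial cells, so they were at least 165- and 124-fold higher against a floor of 3 UMIs over the group. Cxcl12, the ligand of CXCR4, did not pass the test against endothelium (log2 fold change -0.26 ± 0.40, adjusted p = 0.67, edgeR), and was higher than in epithelial cells (9.66 ± 0.48, adjusted p = 6.7e-08). Gas6 was higher than in endothelium (3.95 ± 0.37, adjusted p = 5.0e-06, edgeR, log2 fold change) and Kitl, stem cell factor, lower (-3.19 ± 0.48, adjusted p = 2.2e-04). Adventitial markers were higher in 10 of 13 against endothelial cells and in 15 of 16 against epithelial cells (all genes 14.4% and 16.7%). Ly6a did not pass the test against endothelium (-0.18 ± 0.33, adjusted p = 0.74, edgeR). Icam2 and Gpihbp1, endothelial genes outside the rule, had 0 UMIs in the collagen-expressing cells of these libraries and were at least 517- and 496-fold lower. Against epithelial cells the 5 genes with the largest fold changes were Serpina3n, Fbln1, Mgp, Dpt and Sparcl1. Serpina3n and Fbln1 had 0 UMIs there and were at least 1962- and 1168-fold higher.

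Contractile genes were higher in 3 and lower in 2 of 14 against endothelial cells (all genes 14.4% and 14.0%), and 4 and 4 of 14 against epithelial cells (all genes 16.7% and 11.2%). Against endothelial cells, 1 was higher and 3 were lower of 12 without mesothelial and mural cells (all genes 437 and 411 of 2422). Immediate early genes were higher in 9 of 14 and 8 of 14 and lower in 0 (all genes higher 14.4% and 16.7%, lower 14.0% and 11.2%). Interferon-induced genes were higher in 1 of 11 against endothelial cells, near the share of all genes, with Ifi27l2a that gene (log2 fold change 3.12 ± 0.66, adjusted p = 0.0029, edgeR). Against epithelial cells 5 of 11 were higher and 0 lower (all genes 16.7% and 11.2%). With mesothelial and mural cells left out, 1 was higher and 3 were lower of 8 against endothelial cells (all genes 437 and 411 of 2422). Against epithelial cells 4 were then higher and 0 lower of 9 (all genes 960 and 678 of 4887). At day 3 Isg15 stood at 1260.1 CPM in the collagen-expressing and 779 CPM in the endothelial cells, and Ifitm3 at 7775 and 7000.0 CPM. The part of free RNA in these values was not tested. Spp1 was at an adjusted p of 0.052 against endothelial cells (edgeR), and at 0.81 without mesothelial and mural cells. Lyz2 and Scgb1a1, of macrophages and club cells, were lower in the collagen-expressing than in the endothelial cells (-1.21 ± 0.32, adjusted p = 0.012 and -1.28 ± 0.35, adjusted p = 0.014, edgeR, log2 fold change), but not without the library block (adjusted p = 0.14 and 0.17, edgeR).

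**Figure D5:**
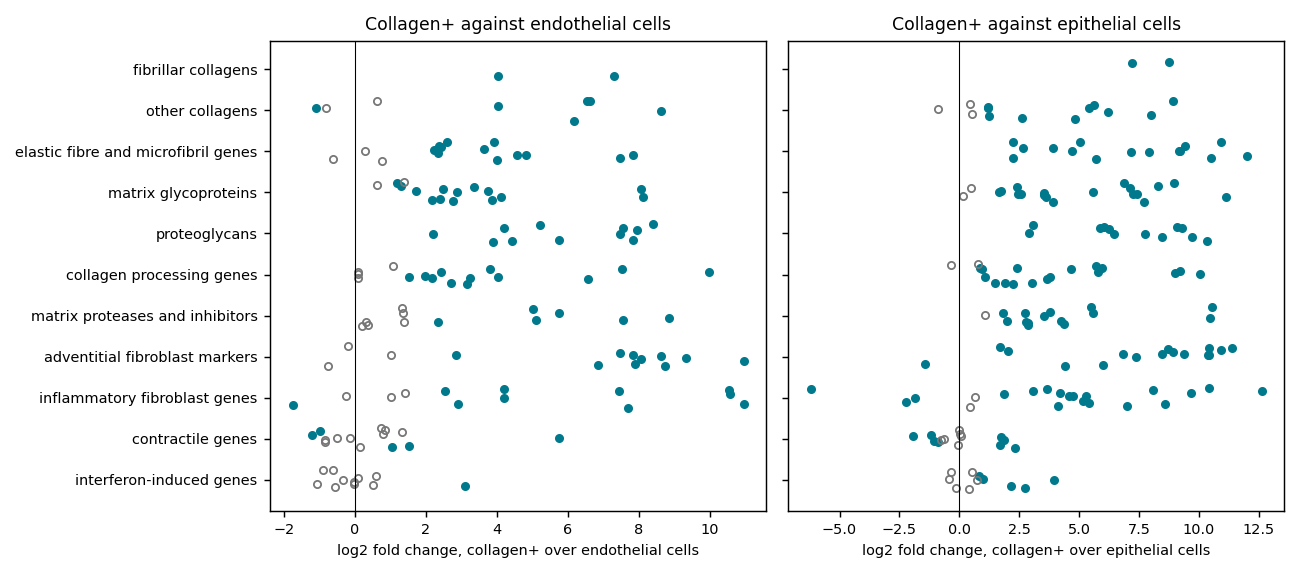
Log2 fold changes (x axis) of the tested members of 11 gene lists (rows) in collagen-expressing cells over endothelial cells (left) and epithelial cells (right), filled where the adjusted p is under 0.05 and open otherwise. Nearly all matrix, proteoglycan and adventitial genes lie to the right of 0, and contractile and interferon-induced genes lie around it.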

How the data were processed

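Droplet 3′ libraries were made from whole lung suspensions after collagenase digestion and red cell lysis. The authors processed the reads with Cell Ranger (6.0.0 in the submitters' notes, 3.1.0 in the matrix headers) against mm10 and deposited raw UMI counts per barcode for 28693 features, including a reporter feature, RFP. No normalized values were used. Library totals ran from 89769386 to 167506186 UMIs. Multi-mapped and overlapping genes were handled upstream in ways not given in the sources used here.

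The members and the gene lists were chosen with earlier results of these data known. Of 447 listed symbols, 6 were found under an older name. UMIs were summed over the collagen-expressing cells of each library. With 1 library per day, values carry exact 95% Poisson, binomial (Clopper-Pearson) or ratio intervals, which cover counting error only. Log2 ratios of single genes use a pseudocount of 10 CPM, and printed folds between days are ratios of CPM without it. A fold against 0 UMIs was set against a floor of 3 UMIs. Rule genes were left out of all counts. Doublets were scored with Scrublet and not removed in the main values. Clusters came from Leiden clustering (scanpy 1.11.5, resolution 1) of 2000 variable genes, 15 components and 15 neighbours.

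Cell classes were compared with edgeR 4.0.16 in R 4.3.3 (quasi-likelihood test, TMM, filterByExpr, library as a block, Benjamini-Hochberg adjustment), with DESeq2 1.42.0 as an alternative. Counts were also simulated from the gene means and totals of these libraries, with a fixed dispersion that was not estimated from them. Of 200 well-counted genes set to change 4-fold, 80.5% were recovered in the endothelial comparison (3477 genes) and 80% in the epithelial one (6819 genes). The real spread between libraries was not simulated, so these shares do not give the power of the tests. Named genes were the rule genes, RFP, the 5 largest increases and decreases per day (without genes that had over 25% of UMIs in 1 cell), up to 4 of the most abundant and 3 of the most different members per list, up to 3 called members per list and the 5 largest fold changes per class comparison, and the 10 leading genes per cluster. Further genes named from the lists were chosen after their values were seen.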

Additional observations from a re-analysis of the deposited data

How the results depend on the processing

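Each cell share stayed within its interval under the filters tried, except that at day 7 it was 0.411% without mesothelial and mural cells (chosen after seeing the data). With TMM factors the count of higher genes was 279 at day 3 and 125 at day 14, and that of lower genes 200 at day 14. With a minimum of 50 CPM 241 genes were higher at day 7. Without mesothelial and mural cells 101 genes were lower at day 7 and 71 at day 28. With CPM averaged per cell 128 genes were higher at day 14. The summed lists are given as log2 ratios to sham. With likely doublets removed, the matrix list was at 0.22, 0.67 and 0.16 at days 3, 14 and 28, the contractile list at 0.38 at day 3 and at -0.14, the opposite sign, at day 28, and the inflammatory list at 0.73, 0.30 and 0.30 at days 3, 14 and 28, where its reported ratios at days 14 and 28 were -0.0054 and 0.083 with intervals that included 0. Without mesothelial and mural cells, the matrix list was at 0.092, the opposite sign, at day 7 and at 0.64 at day 14, the contractile list at 1.09 at day 7, and the inflammatory list at 0.80 and 0.40 at days 3 and 7. With CPM averaged per cell, the matrix list was at 0.12, 0.017 (the opposite sign) and 0.41 at days 3, 7 and 14, the contractile list at 0.042 at day 28, and the inflammatory list at 0.89, 0.93, 0.29 and 0.52 at days 3, 7, 14 and 28. Without the cell with most UMIs of the list in both libraries (chosen after seeing the data), the matrix list was at 0.32 at day 14 and the inflammatory list at 0.90 and 0.27 at days 7 and 28. The matrix list was at -0.074 at day 7 with 10 collagen UMIs or more, and the inflammatory list at -0.12 at day 14 with a mitochondrial limit of 10% and at -0.11 at day 28 with the UMI floor of day 7. Its values of 0.30 and 0.29 at day 14 and -0.11 at day 28 thus have the opposite sign of those ratios near 0. The causes of the sign changes were not tested. With resolution 0.5 there were 5 clusters.

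Against other classes, no filter gave 1102 higher and 854 lower genes (endothelial) and 1872 lower (epithelial), and no TMM gave 319 lower (epithelial). Leaving out each library in turn gave 337 to 608 higher and 330 to 626 lower (endothelial) and 773 to 1326 higher and 375 to 1219 lower (epithelial, the lowest without day 7 and the highest without sham). Without the library block, which pairs both classes of a suspension, 373 and 373 genes were called against endothelial and 1052 and 652 against epithelial cells. DESeq2 called 441 and 397, and 1016 and 572. No paired analysis was possible between days because each day had 1 library. Of the settings tried on summary results, 187 stayed the same, 39 moved and 3 changed the sign of a ratio whose interval had lain apart from 0; of those on single genes, 389 stayed and 11 moved. Depth limits sham and day 14 most, where 3 UMIs stand for 17.1 and 13.1 CPM.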

Other observations

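Genes outside the lists were also named by the size of their ratio. Gstp1, a glutathione transferase, was at 125, 245, 103, 4.38 and 3.26 CPM in the collagen-expressing cells from sham to day 28 and at 41.0, 56.3, 19.4, 1.29 and 1.64 CPM in the other barcodes, so both held little at days 14 and 28. AY036118 was at 39.9, 78.0, 175, 521 and 531 CPM and, in the other barcodes, at 17.2, 59.3, 86.8, 191 and 223 CPM. These genes thus differed by library in all barcodes. Nampt, which makes nicotinamide mononucleotide, was at 5.70, 39.8, 31.5, 30.6 and 121 CPM and highest at day 28. Mical2, which oxidizes actin, was at 5.70, 33.4, 108, 74.4 and 26.1 CPM and highest at day 7. Gfra2, a receptor for neurturin, was at 5.70, 49.3, 30.3, 105 and 48.9 CPM and highest at day 14. Cdon, a cell surface receptor of Hedgehog signals, was at 165, 22.3, 74.6, 149 and 121 CPM. Among p53 targets, Btg2, an antiproliferative gene that is also an immediate early gene, was lower at each day, at 1989.7, 725, 835, 565 and 814 CPM.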
